A study of Homo sapiens with 10 samples.

Results

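The LILR, SIGLEC and CLEC genes encode receptors of the myeloid cell surface, together with some secreted or intracellular proteins that carry the same names. They were taken as the protein-coding rows whose symbol starts with LILRA, LILRB, SIGLEC or CLEC and a digit, or is CD33, which gave 54 of the 60603 genes listed and of the 19975 protein-coding ones. The set holds 10 LILR genes, 13 SIGLEC genes with CD33 counted among them, and 31 CLEC genes, all present in the tables of both experiments. RNA came from NB4, an acute promyelocytic leukemia cell line. In the knockdown experiment, cells carried the pLKO.1 puro lentiviral vector, either empty (EV) or with a hairpin, shA1 or shB2, aimed at GSE1, a partner of the histone demethylase LSD1, and were harvested 48 h after transduction. In the inhibitor experiment, cells received DMSO or 2 µM of the LSD1 inhibitor MC2580 (written MC280 in the sample titles) for 24 h. Each of the 5 groups has 2 replicates, so that 6 and 4 libraries stand behind the experiments.

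The only level used here is the base mean, which DESeq2 computes as the mean of the normalised read counts over all libraries in a fit. The table headers do not name those libraries. In the knockdown table the base means given beside the comparisons of both hairpins were equal in all 60603 rows, so they were read as 1 mean over EV, shA1 and shB2 together, and that of the inhibitor table as a mean over DMSO and MC2580. Read in this way, the base mean gives how much of a transcript was present in each experiment, and it cannot separate a hairpin from EV or MC2580 from DMSO. It also carries no error, as no value per library was used, and no test was made. GSE1 itself had a base mean of 2963 in the knockdown experiment and 4441 in the inhibitor experiment, and KDM1A, which encodes LSD1, had 7648 and 6285. Neither value checks the knockdown. Because RNA was measured in bulk, fewer cells of a kind and less RNA per cell cannot be told apart.

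Receptors of these families set the threshold at which myeloid cells respond. LILRB1, LILRB2 and most CD33-related Siglecs bind HLA class I or sialic acid and carry cytoplasmic inhibitory motifs that recruit the phosphatases SHP-1 and SHP-2. By contrast, LILRA receptors, Siglec-14 and several CLEC receptors pair with the adaptors FcRγ or DAP12 and signal through the kinase SYK. The families arose by repeated gene duplication, and their members often lie side by side in the genome.

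The duplication is visible in the promoters. LILRA1, LILRB1 and LILRB2 have start-site windows that are much alike. Each window runs from 250 bases before to 50 after an annotated start and is written 5′ to 3′ along the gene (RefSeq, GRCh38.p14). Capitals mark the core AAATCA bound by GFI1, a SNAG-domain repressor that recruits LSD1. For each gene the window that holds this core was picked, so its presence in all of them follows from the choice.
LILRA1, chr19:54593382-54593681, plus strand: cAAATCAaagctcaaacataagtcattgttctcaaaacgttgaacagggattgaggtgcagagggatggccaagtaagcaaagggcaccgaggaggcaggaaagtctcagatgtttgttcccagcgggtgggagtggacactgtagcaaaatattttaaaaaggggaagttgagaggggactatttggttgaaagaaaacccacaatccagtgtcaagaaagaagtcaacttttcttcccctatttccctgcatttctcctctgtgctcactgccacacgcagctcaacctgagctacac
LILRB1, chr19:54630234-54630533, plus strand: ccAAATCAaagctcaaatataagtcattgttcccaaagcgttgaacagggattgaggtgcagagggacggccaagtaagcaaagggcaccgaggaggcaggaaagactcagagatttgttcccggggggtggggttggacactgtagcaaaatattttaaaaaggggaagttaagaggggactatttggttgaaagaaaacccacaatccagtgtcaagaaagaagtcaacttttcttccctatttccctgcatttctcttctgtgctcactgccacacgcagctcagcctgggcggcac
LILRB2, chr19:54281061-54281360, minus strand: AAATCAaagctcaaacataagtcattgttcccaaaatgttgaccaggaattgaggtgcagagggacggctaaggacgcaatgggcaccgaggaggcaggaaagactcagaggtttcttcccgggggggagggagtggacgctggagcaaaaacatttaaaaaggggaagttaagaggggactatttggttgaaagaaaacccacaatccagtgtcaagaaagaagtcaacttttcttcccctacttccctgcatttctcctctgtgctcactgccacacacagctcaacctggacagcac
Aligned end to end, LILRA1 and LILRB1 were identical at 93.7% of columns, and LILRB2 at 90.4% with either of them. The windows lie mostly before the start, so these values do not measure how well reads can be assigned. Of the 50-base stretches in LILRA1 transcripts, only 4.94% occur in another gene, and 3.23% occur in LILRB1. LILRB1 and LILRB2 have further annotated starts whose windows lack the core, as has LILRA1.

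SIGLEC5 and SIGLEC14, a pair of receptors with opposite signalling, are alike in their windows too, which hold none of the cores searched. The SIGLEC5 window surrounds the start, at 51630401, of the protein-coding gene ENSG00000268500, and not that of the row the tables name SIGLEC5, whose annotated transcript starts at 51645545.
SIGLEC5, chr19:51630352-51630651, minus strand: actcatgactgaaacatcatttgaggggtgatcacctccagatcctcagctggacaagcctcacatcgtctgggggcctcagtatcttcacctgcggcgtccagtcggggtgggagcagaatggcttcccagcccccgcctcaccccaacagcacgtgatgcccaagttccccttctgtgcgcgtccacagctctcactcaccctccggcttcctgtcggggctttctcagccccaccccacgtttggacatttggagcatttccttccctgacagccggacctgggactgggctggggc
SIGLEC14, chr19:51646776-51647075, minus strand: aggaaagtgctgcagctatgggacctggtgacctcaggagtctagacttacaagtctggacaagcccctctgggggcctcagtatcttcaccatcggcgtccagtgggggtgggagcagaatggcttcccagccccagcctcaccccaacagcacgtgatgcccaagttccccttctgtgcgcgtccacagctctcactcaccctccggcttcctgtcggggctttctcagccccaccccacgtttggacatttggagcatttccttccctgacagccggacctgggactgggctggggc
These windows were identical at 87.2% of aligned columns.

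A gene with a base mean of at least 10 is called expressed below. By this rule 28 of the 54 members were expressed in the knockdown experiment and 27 in the inhibitor experiment, and the 27 were all among the 28. The share of 51.9% in the knockdown experiment lay below the 63.1% of all protein-coding genes, and the share in the inhibitor experiment lay below 63.0%. Most SIGLEC genes were expressed, 10 of 13 in each experiment, against 5 and 4 of 10 LILR genes and 13 of 31 CLEC genes in each. The median base mean of the expressed members was 76.1 and 64.3, while expressed protein-coding genes had medians of 1087 and 1003. The members together made up 698 of every 1000000 normalised reads in the knockdown experiment and 921 in the inhibitor experiment.

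**Figure D1:**
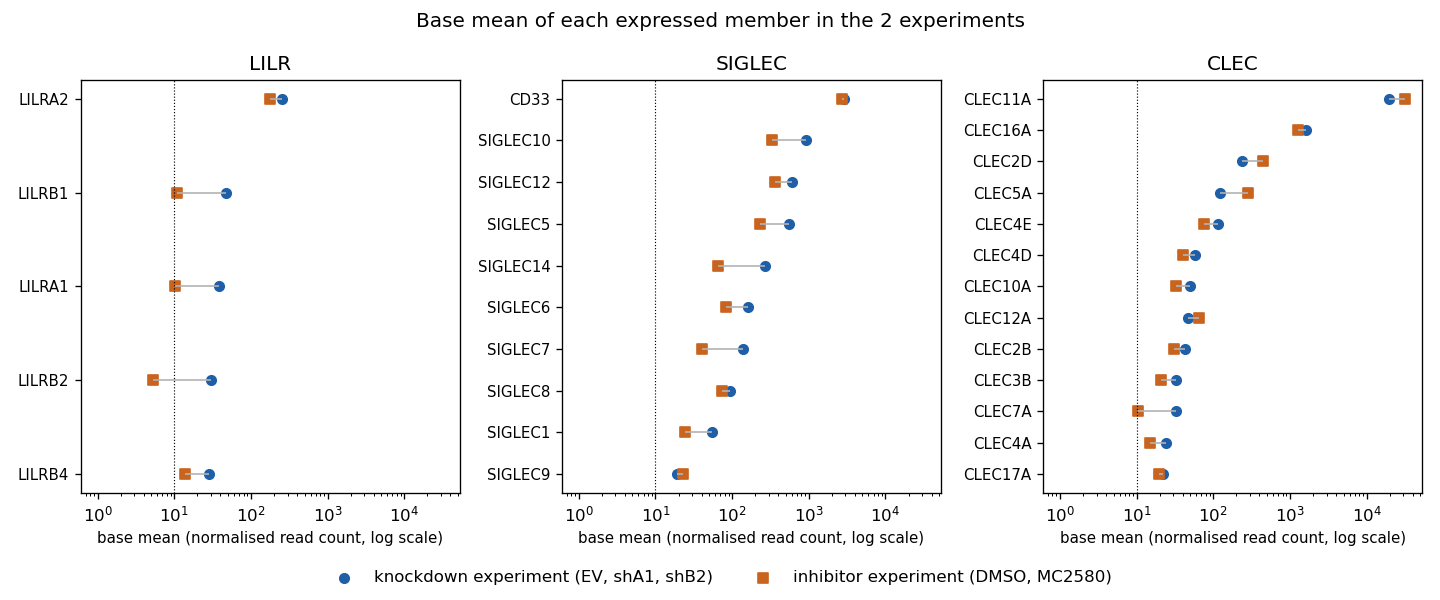
Base mean on a log scale for the 28 expressed members, by family, in the knockdown experiment (blue circles) and the inhibitor experiment (orange squares), with a dotted line at 10. Each point is the authors' base mean and has no error bar. LILRB2 is the 1 member on both sides of the line, with 29.9 and 5.29.

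**Figure D2:**
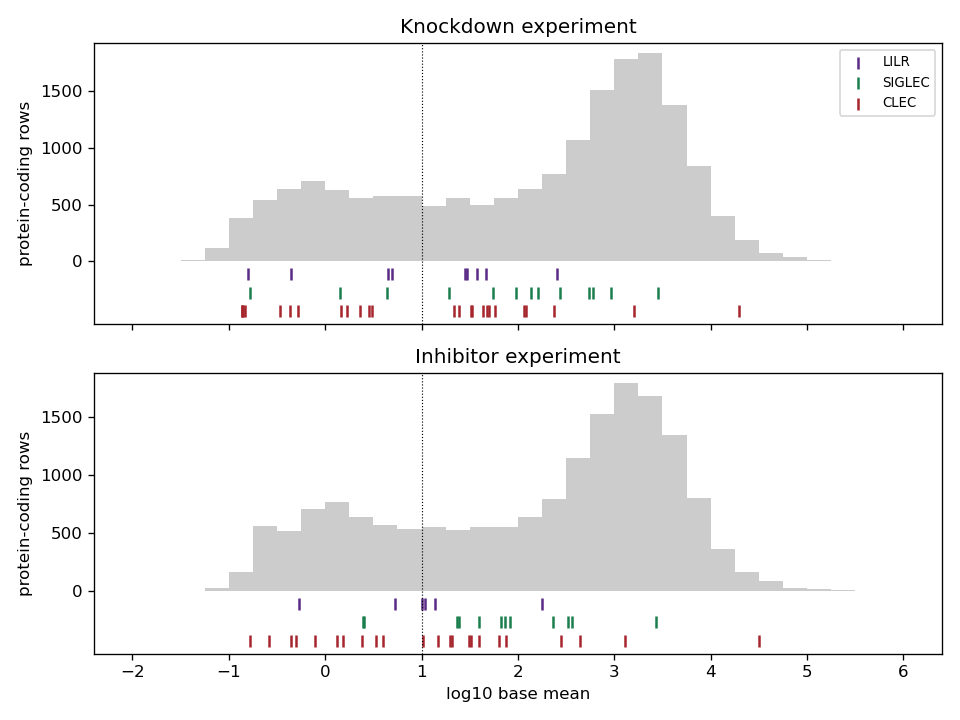
Number of protein-coding genes by log10 base mean in each experiment (grey bars, genes above 0), with a tick for each member above 0 and a dotted line at a base mean of 10. Most members lie to the left of the main peak of expressed genes, and the tick farthest to the right is CLEC11A, with a base mean of 19799 and 31458.

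The member with the highest level per length is not a surface receptor. CLEC11A, a secreted growth factor for hematopoietic progenitors, had a base mean per kilobase of merged exons of 13904 in the knockdown experiment and 22091 in the inhibitor experiment. It had a base mean of 19799 and 31458, above 98.6% and 99.3% of protein-coding genes. It alone supplied 70.0% and 82.9% of the summed base mean of the 54 members. CLEC16A, an intracellular protein of endosome and autophagy traffic, had base means of 1602 and 1277. CLEC3B, which encodes the plasma protein tetranectin, had 33.1 and 20.8, but 61.3% of its annotated exon length lies in EXOSC7 on the same strand, a gene with base means of 3871 and 5680. The name of surface receptors therefore fits most of the genes but not most of their reads.

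CD33 is the sialic acid receptor used as a target of antibody therapy in acute myeloid leukemia. Among the receptors of the cell surface with a usable length, CD33 had the highest level per length, with 479 and 457 per kilobase. SIGLEC5 had no usable length and is not in this ranking. Its base mean was 2860 in the knockdown experiment and 2728 in the inhibitor experiment, above 83.8% and 84.0% of protein-coding genes. It made up 50.3% and 68.8% of the summed base mean of the SIGLEC genes. Only 1.11% of the 50-base stretches in its transcripts occur in another gene.

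The other CD33-related Siglecs varied widely. SIGLEC10, an inhibitory receptor for CD24, had base means of 933 and 330 in the knockdown and inhibitor experiments. SIGLEC12, whose human protein has lost the residue needed to bind sialic acid, had 597 and 361. SIGLEC6 had 160 and 82.8, SIGLEC8, known from eosinophils, had 95.0 and 74.2, and SIGLEC7, known from natural killer cells, had 137 and 39.9. Of the SIGLEC7 exon length, 27.5% is covered on the opposite strand by the long noncoding gene AC063977.6, which had base means of 63.9 and 65.4, and the library kit keeps no strand. SIGLEC9, a receptor of neutrophils and monocytes, had base means of 19.3 and 23.1. SIGLEC1, the macrophage receptor sialoadhesin, which lies apart from the others on chromosome 20, had 55.4 and 24.4.

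SIGLEC5, which is inhibitory, had base means of 550 and 230, and SIGLEC14, which pairs with DAP12, had 271 and 66.4. The level of SIGLEC5 is uncertain because the tables list it under ENSG00000105501.12, an identifier that GENCODE release 44 gives to a noncoding transcript of the locus. The protein-coding SIGLEC5 of that release is ENSG00000268500, which the tables name AC018755.2 and list with 305 and 162. Of the 50-base stretches of SIGLEC14, 13.6% occur in a gene named SIGLEC5. Of those of ENSG00000105501, 38.3% occur in SIGLEC14 and 33.7% in the protein-coding SIGLEC5, so levels within this locus are not well separated. SIGLEC11, SIGLEC15 and SIGLECL1 stayed below 10 in both experiments, at no more than 4.35.

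The LILR genes contributed the fewest reads, 9.99 of every 1000000 in the knockdown experiment and 5.26 in the inhibitor experiment, against 140 and 96.2 for the SIGLEC genes. LILRA2, an activating receptor that senses antibodies cut by microbes, had base means of 252 in the knockdown experiment and 176 in the inhibitor experiment. The inhibitory HLA class I receptor LILRB1 had 46.9 and 10.8, and LILRB2, of similar function, had 29.9 and 5.29. LILRA1 had 38.0 and 10.1. LILRB4, an inhibitory receptor of monocytes and of monocytic leukemia, had 28.1 and 13.9. LILRA4 and LILRA5 reached 4.50 and 4.92 in the knockdown experiment and 0 and 0.541 in the inhibitor experiment, and LILRB3 and LILRA6 stayed below 1 in the first and were listed at 0 in the second. LILRB5 was listed at 0 in both. Of the 50-base stretches of LILRB1, 1170 of 5860 occur in other genes, as do 14.0% of those of LILRB2, 27.3% of LILRB3 and 23.4% of LILRA6. For LILRA1 the share was lower, at 4.94%. In each case the gene that shares most of them is another LILR gene. Levels of these LILR genes are therefore less certain than that of CD33. LILRA2 and LILRB4 overlap a noncoding gene listed at 0 and a pseudogene listed at 0 on the same strand.

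Among the CLEC receptors, CLEC2D, the ligand of the natural killer receptor CD161, had base means of 239 and 443 in the knockdown and inhibitor experiments. Its exons hold the processed pseudogene NPM1P7 over 12.1% of their length, and NPM1 itself had base means of 57967 and 70016. CLEC5A, a DAP12-linked receptor for dengue virus, had 122 and 283. CLEC4E and CLEC4D, the FcRγ-linked receptors Mincle and MCL for mycobacterial glycolipid, had 116 and 74.7, and 57.3 and 39.9. CLEC7A, the β-glucan receptor Dectin-1, had 32.9 and 10.5. CLEC12A, an inhibitory receptor that marks leukemic stem cells, had 47.4 and 64.3, and CLEC4A, which also carries an inhibitory motif, had 24.5 and 15.0. Of the CLEC4A exon length, 68.9% lies in the noncoding gene AC006511.5 on the same strand, which had base means of 3.91 and 3.59. CLEC10A, a galactose-type lectin, had 49.9 and 32.3, CLEC2B, the ligand of NKp80, had 43.1 and 30.8, and CLEC17A had 21.8 and 19.8.

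The other 18 CLEC genes did not reach 10 in either experiment, and their highest values were 3.04 for CLEC1B in the knockdown experiment and 4.00 for it in the inhibitor experiment. CLEC4C, CLEC6A, CLEC9A, CLEC2L and CLEC19A were listed at 0 in both. CLEC4C and CLEC9A are markers of plasmacytoid and conventional dendritic cells, and CLEC6A encodes Dectin-2. CLEC2A was listed at 0 in the knockdown experiment only, and CLEC3A, CLEC4G and CLEC18C in the inhibitor experiment only. CLEC18A, CLEC18B and CLEC18C share 65.1%, 83.5% and 82.7% of their 50-base stretches with other genes and cannot be told apart well.

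Levels of different genes are comparable only per length, which leaves out SIGLEC5. After CLEC11A and CD33, SIGLEC12 with 255 per kilobase and SIGLEC10 with 254 were next in the knockdown experiment, and without an error their order cannot be judged. In the inhibitor experiment SIGLEC12 had 154, CLEC16A 102 and SIGLEC10 89.9. The lowest expressed member in the knockdown experiment was LILRB4, with 4.43. Per kilobase, CD33 made up 3.07% and 1.96% of the members' sum, against 10.1% and 7.19% of the summed base means.

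The 2 tables were normalised separately and the experiments differ in transduction, time and treatment, which cannot be told apart, so their values are set side by side without a test. To put them on 1 scale, each base mean was divided by the sum over all genes, and the ratio of the knockdown to the inhibitor experiment was taken for the 27 members expressed in both. The median ratio was 1.58, and 22 of the 27 had a ratio over 1, whereas the median over 12354 protein-coding genes expressed in both was 1.06 and 57.9% had a ratio over 1. The ratio exceeded 2 for 9 members, or 33.3%, against 4.89% of these protein-coding genes. Scaled instead by the median ratio of well-expressed genes, LILRB4 had 1.92. On that scale 8 members, or 29.6%, were above 2, against 3.89% of the same protein-coding genes. The members and the protein-coding genes were not matched for level. Expressed members had median base means of 76.1 and 64.3, against 1087 and 1003 for expressed protein-coding genes, and ratios of low values spread more. With 4 genes the LILR family had a median ratio of 2.94, the 10 SIGLEC genes had 2.14 and the 13 CLEC genes had 1.42. Higher levels in the knockdown experiment were not particular to the members. Of 18 other paired or inhibitory receptors, CD300C had base means of 323 and 62.2, TREML2 654 and 280, and CD300LB 161 and 60.9. CD300LF had 223 and 105, while LAIR1, with 798 and 782, and TREM1, with 335 and 272, differed less. These are base means not divided by the sum over all genes, and the genes were named after their values were seen. PILRB, with 5993 and 10788, and SIRPB1, with 2385 and 2745, were instead lower in the knockdown experiment.

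The highest ratios were those of LILRB1 with 4.42, SIGLEC14 with 4.14, LILRA1 with 3.83, SIGLEC7 with 3.48 and CLEC7A with 3.19. SIGLEC10 with 2.88, SIGLEC5 with 2.44, SIGLEC1 with 2.31 and LILRB4 with 2.05 also passed 2. In the inhibitor experiment LILRB1, CLEC7A, LILRA1 and LILRB4 had base means of only 10.8, 10.5, 10.1 and 13.9. These lie near the cutoff of 10, so the ratios of these genes are less certain. The value for SIGLEC5 depends on the row: AC018755.2, the protein-coding gene by GENCODE release 44, had a ratio of 1.91, which in its place left 8 members, or 29.6%, above 2 and a SIGLEC median of 1.94. With both rows summed the ratio was 2.22, 9 members passed and the SIGLEC median was 2.09. LILRB2, expressed in the knockdown experiment alone, had a ratio of 5.74 at a base mean of 5.29 in the other. CD33 had a ratio of 1.07, and its share of all normalised reads was 70.5 and 66.2 per 1000000. In the other direction CLEC5A was the 1 member with a ratio below 0.5, at 0.437, beside 1.26% of protein-coding genes. CLEC2D with 0.548, CLEC11A with 0.640, CLEC12A with 0.749 and SIGLEC9 with 0.850 also had a lower share in the knockdown experiment. MPO, which encodes the granule enzyme myeloperoxidase, also had a lower base mean there, 506765 against 824818, and its part in these ratios was not tested.

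By position on GRCh38 (GENCODE release 44), the 10 LILR genes lie within 0.454 Mb of chromosome 19, from 54216278 to 54670359. A cluster of 10 SIGLEC genes with CD33 spans 0.522 Mb of the same chromosome, from 51124906 to 51646825, and all of it but SIGLECL1 was expressed in both experiments. CLEC11A, at 50723364 to 50725708, is on that chromosome as well. Of 14 CLEC genes between 7729383 and 10130258 on chromosome 12, 7 were expressed in each experiment, and of the 17 elsewhere 6 were. Within that cluster CLEC6A, listed at 0 in both experiments, lies between the expressed genes CLEC4A and CLEC4D.

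Start-site windows were found for 40 of the 54 members in RefSeq. Their windows hold few CpG, with a median of 6 in the 21 expressed members matched and 5 in the 19 others, against 16 over 27305 genes. The core AAATCA, on either strand, occurred in 4 of the 21 expressed members, 26.3% of the others and 15.6% of all genes, the expressed ones being CLEC2D, LILRA1, LILRB1 and LILRB2. The C/EBP core TTGCNNAA occurred in 4.76% of the expressed members, 10.5% of the others and 12.7% of all genes. The PU.1 core GAGGAAGT occurred in 4.76%, 5.26% and 3.15% of them. Matches to such cores are a description of the letters and not of binding.

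The partners through which these receptors signal were expressed. All 3 adaptor genes passed 10 in both experiments, and the base mean per kilobase was 676 and 429 for TYROBP (DAP12), 614 and 369 for FCER1G (FcRγ) and 261 and 257 for HCST. All 3 genes of phosphatases that bind inhibitory motifs passed, with PTPN6 (SHP-1) at 1793 and 1456 per kilobase, INPP5D at 883 and 647 and PTPN11 (SHP-2) at 671 and 737. All 6 kinases passed, led by SYK with 1393 and 1159, BTK with 633 and 442 and LYN with 472 and 357 per kilobase. All 5 genes of signalling downstream of CLEC receptors passed, led by CARD9 with 1337 and 1476, VAV1 with 951 and 600 and PLCG2 with 429 and 303 per kilobase. The values named lie above those of every LILR gene and every CLEC receptor of the cell surface on the same scale, while those of FGR, at 42.3 and 19.8, do not.

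Ligand genes were expressed in the same cells. Of 7 genes of HLA class I and its light chain, the ligand of LILRB1 and LILRB2, 5 passed in each experiment, with B2M at 6072 and 5779 per kilobase, HLA-B at 1698 and 1822 and HLA-E at 1501 and 1243. HLA-F and HLA-G stayed below 10. All 8 genes of sialic acid synthesis and transfer passed, led by CMAS with 1387 and 1216, ST3GAL4 with 532 and 692 and NANS with 527 and 705 per kilobase. KLRB1 and KLRF1, the receptors for CLEC2D and CLEC2B on natural killer cells, had base means below 1 in both experiments. Of 18 other paired or inhibitory receptors, 12 passed in the knockdown experiment and 11 in the inhibitor experiment, with PILRB highest at 1040 and 1873 per kilobase, then SIRPA at 999 and 650 and SIRPB1 at 290 and 334.

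Among 10 genes that mark the myeloid line, CD33 included, 9 passed 10 in both experiments, and ELANE was the exception with 1.10 and 3.87. Of 20 markers of other cell types, 12 passed in the knockdown experiment and 9 in the inhibitor experiment, with summed base means of 5944 and 4428. The natural killer cell markers passed in 3 of 3 cases in the knockdown experiment and 2 of 3 in the inhibitor experiment, with base means of 2346 and 1407 for NKG7, 1286 and 883 for NCAM1 and 10.1 and 4.75 for KLRD1. Both epithelial markers passed in each experiment, with 432 and 403 for EPCAM and 152 and 143 for KRT8. The T cell markers passed in 2 and 1 of 3 cases, with 866 and 869 for CD3D but 1.55 and 2.98 for CD3E. Of the B cell markers 2 of 3 passed in each experiment, and MS4A1 did not. Of the megakaryocyte markers ITGA2B alone passed, with 660 and 549, and of the fibroblast markers COL1A1 alone. HBB, which encodes a globin of red cells, passed in the knockdown experiment only. PF4 was listed at 0 in both experiments, GP9 in the knockdown experiment, and HBB, ALAS2 and MS4A1 in the inhibitor experiment. The part of these markers in the members' levels was not tested.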

How the data were processed

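RNA-seq of 10 NB4 libraries was analysed as 2 tables of genes, for the knockdown and the inhibitor experiment. Libraries were made with the unstranded TruSeq RNA v2 kit. The submitters' processing notes name STAR 2.7, RSEM and DESeq2 and the build hg38, and the annotation release is not given in the sources used here. The base means are signal values that the authors deposited, each read as an average of normalised counts over every library of its experiment, which the headers do not state. The knockdown table holds such a column for each hairpin, and 0 of 60603 rows differed between them. The other columns hold the authors' log2 fold changes with standard errors, test statistics and p-values and were not used. An edgeR test had been planned for the case of values per library and was not run. Whole reads could not be recovered, since 6842 base means between 0 and 0.5 for the knockdown experiment took 6478 different values, and 5173 for the inhibitor experiment took 4671, so depth per library is unknown. Base means sum to 40543130 and 41201112.

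Members, gene lists, thresholds, promoter windows and motifs were chosen with earlier results of these data known. By rule, the text names each member that reached a base mean of 10 in either experiment, those listed at 0 in both, and the highest 3 genes of each partner list, ranked here per kilobase. Other genes were named after their values were seen. Lengths, positions, exon overlaps and 50-base stretches shared between transcripts of different genes, on either strand, came from GENCODE release 44, in which 60261 of 60558 identifiers and all 54 members were found. A planned search of proteins for inhibitory motifs was not run, as no protein sequences were used. Python 3.11.15 with pandas 2.3.3 was used, and the functions were tested on simulated data.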

Additional observations from a re-analysis of the deposited data

How the results depend on the processing

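The number of members that count as expressed depends on the threshold. At a base mean of 50 or more it was 16 in the knockdown experiment and 14 in the inhibitor experiment, and at 1 or more it was 37 and 35. The share of all protein-coding genes was taken only at 10, so these counts were not set against it. CLEC11A stayed the highest member per kilobase when the longest transcript was taken as the length, at 14399 and 22879. The share of CD33 in the members' sum fell from 10.1% to 3.07% and from 7.19% to 1.96% when base means were divided by length. Per 1000000 normalised reads of protein-coding genes alone, the members made up 709 and 939. Scaling the experiments by the median ratio of 1.07 over 10916 well-expressed protein-coding genes left 9 in place of 10 members with a ratio over 2 or below 0.5. Of the protein-coding genes expressed in both, 3.89% were then above 2 and 1.72% below 0.5, in place of 4.89% and 1.26%. Taking SIGLEC5 from the row that GENCODE release 44 calls protein-coding, an alternative chosen after seeing the data, also left 9, and both rows summed left 10. Leaving out a library could not be done, since no value per library was used. No paired analysis was possible because the base means hold no value per library and the results come from no test. Values below 10 rest on few reads, and genes listed at 0 were not detectable at these depths, which does not show that they were absent.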

Other observations

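Pseudogene copies of these families, which the rule left out, were mostly low. Of 13 such rows, 3 reached a base mean of 10 in the knockdown experiment and 2 in the inhibitor experiment, and 4 were listed at 0 in both. SIGLEC17P had base means of 751 in the knockdown experiment and 412 in the inhibitor experiment. SIGLEC22P, which shares 0.594% of the 50-base stretches of CD33, had 74.9 and 52.1. CLECL1, a lectin-like gene whose symbol has no digit after CLEC, had 121 and 119.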
